A study of Mus musculus with 2 samples.

Results

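The Hedgehog pathway genes described here are *Shh*, *Ihh*, *Ptch1*, *Smo*, *Gli1*, *Gli2*, *Gli3*, *Hhip* and *Sufu*, which are 9 of the 21244 genes on the arrays. They were taken by name, and every probe that the scanner output assigns to one of these symbols was kept, which gave 13 of 55679 probes. Gene expression had been measured in the mouse incisor, a tooth that grows throughout life, on 2 one-colour arrays. 1 array carried RNA from wild-type mice (C57BL/6J in the methods) and 1 carried RNA from *Sox21* KO mice, in which the transcription factor gene *Sox21* is disrupted. The paper credits these mice to the same source as a line with GFP inserted at that locus. The strain background of the KO mice and the number of animals behind each array are not given in the sources used here. Both samples are labelled postnatal day 0, whereas the methods speak of P1 tooth germs, and the submitters describe the dissected material both as ameloblasts, the enamel-forming cells, and as whole tooth germ. With 1 array per genotype there was no replicate, so no test was possible, and every difference below compares 2 arrays and not the genotypes.

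Hedgehog ligands are secreted, lipid-modified proteins. Without ligand, the receptor Ptch1 holds the membrane protein Smo inactive, and Sufu restrains the Gli transcription factors. Ligand binding to Ptch1 releases Smo, and Gli proteins then switch on target genes, among which *Gli1*, *Ptch1* and *Hhip* feed back on the pathway. In the developing tooth *Shh* is made by the dental epithelium and is received by both the epithelium and the mesenchyme beneath it, whereas *Ihh* is best known from growing cartilage, where it controls chondrocyte maturation and bone formation.

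The probes are 60 bases long, and part of each sequence is given for the genes whose values are described most closely, because 2 probes of 1 gene can differ in what they report. Each line below is a stretch of 30 bases, 5′ to 3′, in the sense of the transcript. Capitals mark the letters AATAAA, which is also the common polyadenylation signal, or runs of the dinucleotide CA.
*Shh*, probe A_52_P49014: tgagggaaagattattttgtgaggccaagc
*Ihh*, probe A_55_P2152225: atgttttggtctttcttttgtAATAAAaat
*Gli1*, probe A_55_P2183587: gaaagaacaaactttaataatgacacagtt
*Gli3*, probe A_51_P171288: tcctgcagatgtgtaaAATAAActgtgttc
*Smo*, probe A_51_P258766: ttcaagaaccagacaacaggatgccttaga
*Smo*, probe A_55_P2121484: CACACACAgaCACACACACACAtacactct
*Hhip*, probe A_55_P1969276: ttttgtctctgttactttctcttcatagtc
*Hhip*, probe A_51_P416822: ttctagtaggaaaatcttgtgtcttccttg
AATAAA was found in 2 of the 13 member probes, those of *Ihh* and *Gli3*, and in 10.1% of the 55681 probe sequences on the array, searched in the sense of the transcript. The *Smo* probe A_55_P2121484 was the only member probe with 4 or more CA repeats in a row, a feature of 0.440% of all probes. In 4 of the 13 probes, one each of *Shh*, *Ptch1*, *Gli2* and *Hhip*, all 3 forward frames hold a stop codon. Exon and UTR annotation of the probed positions was not analysed here.

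The normalized signal is the spot signal relative to the 75th percentile on the same array, 268 in the wild-type and 276 in the *Sox21* KO. Differences are log2 of KO over wild-type, and the error given with each is the scanner software's own estimate for the spots, which covers neither animals nor dissections. A probe was called measured when the scanner marked it well above background on both arrays. This held for 11 of the 13 member probes, representing 8 of the 9 genes, with *Sufu* the exception, and for 25953 of all probes. The targeted gene was lower in the array labelled *Sox21* KO at both of its probes, with normalized signals of 5.09 in wild-type and 2.39 in KO at one and 1.07 and 0.375 at the other. *Sox21* thus remained well above background on both arrays, and where its probes lie relative to the disrupted part of the gene is not given in the sources used here. Because these are bulk samples, fewer cells of a type and less RNA per cell cannot be told apart in any of the values below.

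Of the 11 measured member probes, 7 were higher and 4 were lower in the KO, with a median log2 ratio of 0.07 beside -0.00057 over all measured probes. 1 of the 11, that of *Ihh*, lay at least 2-fold apart, where 1.43% of all measured probes did, and none was 2-fold lower, where 0.794% were. At 1.5-fold, *Ihh* and 1 *Hhip* probe lay apart, which makes 2 of the 11 beside 6.9% of all measured probes. For 5 of the 11 probes the difference exceeded the scanner error, beside 35.4% of all measured probes. These 5 were the *Ihh* and *Gli1* probes, 1 of the 2 *Smo* probes and both *Hhip* probes. The median size of the difference, without its sign, was 0.20 on the log2 scale for the member probes and 0.16 for all measured probes.

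**Figure D1:**
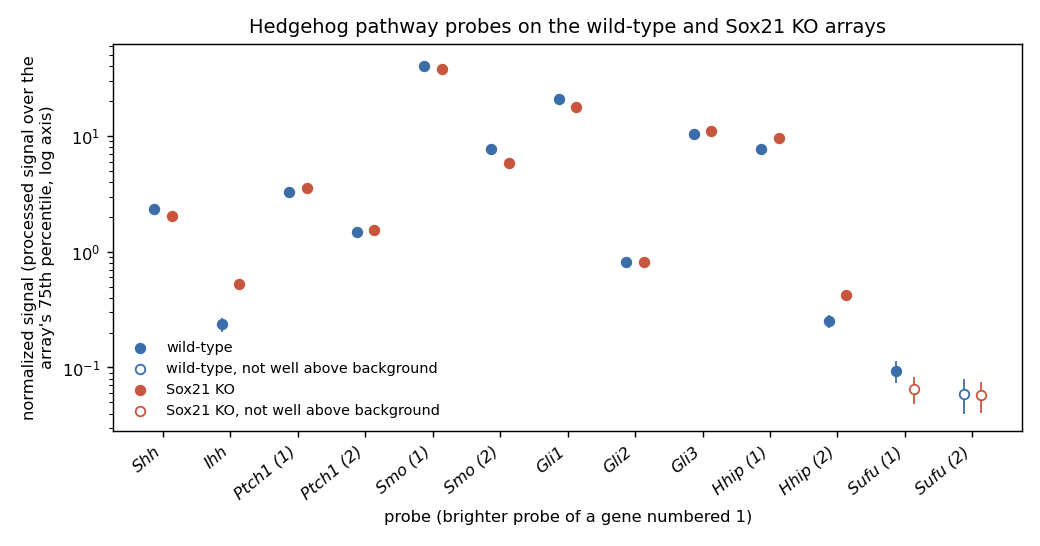
Normalized signal (signal over the 75th percentile of the array, log axis) of each of the 13 member probes on the wild-type and *Sox21* KO arrays, 1 array each. Bars are the scanner error, and filled and open symbols separate spots well above background from the others. The *Ihh* pair lies farthest apart, at 0.235 and 0.523, and the *Sufu* probes lie at the bottom of the range.

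Among the ligands, *Shh* was the only one whose probe was printed at 10 spots on each array. This probe matches mm9 chr5:28783983-28784042 on the minus strand and starts at base 2004 of its transcript. The normalized signal over the 10 spots was 2.26 at the lowest, 2.34 at the median and 2.49 at the highest in wild-type, against 1.94, 2.05 and 2.24 in the KO. All wild-type spots therefore lay above all KO spots, although the gap between the groups of spots was narrow. The spot means were 2.36 ± 0.0862 in wild-type and 2.06 ± 0.0843 in the KO (SD over 10 spots of 1 array, a measure of spot printing and hybridization only). The log2 ratio of the averaged probe was -0.20 ± 0.20 (scanner error), or 1.15-fold higher in wild-type. Among the 170 measured probes that were printed 10 times, 8.82% likewise had every KO spot below every wild-type spot, and 20.6% had every KO spot above. When the arrays were scaled on their medians, or corrected with a normexp background model, the *Shh* spots of the 2 arrays overlapped.

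**Figure D2:**
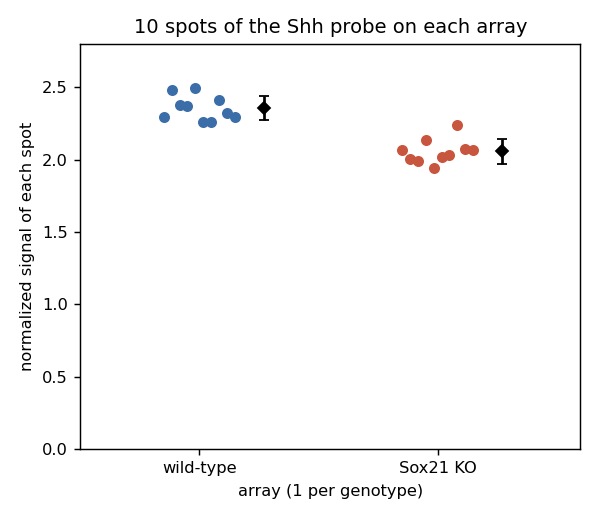
Normalized signal of the 10 *Shh* spots on each array (points), with diamonds and bars for the mean and SD over spots. The lowest wild-type spot, at 2.26, lies just above the highest KO spot, at 2.24.

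*Ihh* showed the widest difference of the 9 genes, and in the opposite direction to *Shh*. Its single probe, at mm9 chr1:74991906-74991965 on the minus strand, carries AATAAA near its 3′ end, as printed above. The spot signal was 63.0 ± 8.31 in wild-type and 144 ± 15.3 in the KO (scanner error), while the lowest signals called well above background were 21.3 and 19.5 on these arrays. The normalized signal was 0.235 in wild-type and 0.523 in the KO, a log2 ratio of 1.15 ± 0.24 or 2.22-fold. At least 2-fold higher signal in the KO was seen for 0.632% of all measured probes. The size of the difference depended on the processing, since the normexp model with an offset of 50 gave 1.53-fold. The parts of the background model and of the offset in this change were not tested.

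Some genes of cartilage, where *Ihh* is characteristically made, and of bone were also higher in the KO. The difference exceeded the scanner error for 4 of the 5 measured cartilage markers and 2 of the 4 bone markers, beside 33.9% of all measured genes. Of the 6 cartilage markers, 5 were measured and all 5 were higher in the KO, none of them by 2-fold, with a median log2 ratio of 0.36 against 0.01 for all measured genes, of which 7239 of 13803 were higher. Their summed normalized signal was 14.2 in wild-type and 22.3 in the KO. *Col2a1*, the main collagen of cartilage, had a log2 ratio of 0.74, or 1.67-fold. *Comp*, a cartilage matrix protein, had a normalized signal of 0.335 in wild-type and 0.619 in the KO, and *Acan*, encoding the proteoglycan aggrecan, had 0.647 and 0.831. The transcription factor gene *Sox9* differed by 0.15 ± 0.20 on the log2 scale, within the scanner error, and *Col10a1*, the collagen of hypertrophic chondrocytes, by 0.33. *Matn1*, a defining matrix gene of cartilage, did not stand well above background on either of the arrays. Of the 4 bone markers, *Spp1* (log2 ratio 0.82 ± 0.20) and *Ibsp* (0.55 ± 0.20) exceeded the scanner error, while *Sp7* (0.01 ± 0.21) and *Bglap* (0.13 ± 0.20) were within the scanner error. The sum of the 4 was 100.4 in wild-type and 150.4 in the KO, most of it from *Ibsp*, at 75.3 and 109.9. The part of cartilage or bone in the *Ihh* difference was not tested.

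Markers of other tissues that a dissected incisor can carry were read in the same way, and the scanner error was exceeded by 6 of 7 ameloblast and 4 of 4 skeletal muscle markers, and by 3 of 4 measured hair follicle and 2 of 3 odontoblast markers, beside 33.9% of all measured genes. It was exceeded by 3 of 6 markers of dental and oral epithelium, 2 of 6 of dental mesenchyme, 1 of 4 of red blood cells and 0 of 4 measured Schwann cell markers. The summed signal of the 4 skeletal muscle markers was 57.6 in wild-type and 40.1 in the KO, with 1 of the 4 higher in the KO. Of the 7 ameloblast markers, 5 were lower in the KO, and the median log2 ratio was -0.62. The 2 at least 2-fold lower were *Amtn* and *Klk4*, where 1.41% of all measured genes were as far apart in either direction. Both are reported in the paper as reduced on these same arrays, so their count beside that share is no test. The 6 markers of dental and oral epithelium, the tissue that makes *Shh*, had a median of 0.20, with 5 of the 6 higher in the KO. *Trp63* counts among the 5 at 0.22, but the ratios of its 4 measured probes reached down to -0.68. *Shh* itself was lower by an amount within the scanner error, at -0.20 ± 0.20. The dental mesenchyme markers had a median of 0.18, likewise with 5 of 6 higher, and 2 of the 3 odontoblast markers were higher, with a median of 0.79. *Dspp*, the main odontoblast matrix gene, had a log2 ratio of -0.0085 at its brighter probe and 0.28 at the other. The summed signal of the 3 odontoblast markers was 114 in wild-type and 117 in the KO. Of the 6 hair follicle markers 4 were measured, all higher in the KO, with a median of 1.49. The 3 at least 2-fold higher were *Krt32*, *Lgr5* and *Foxn1*, with dim wild-type normalized signals of 0.113, 0.147 and 0.110. *Krt32* and *Lgr5* are reported in the paper as raised on these same arrays, so their count is likewise no test. *Krt71* was measured in wild-type alone and was at least 2.34-fold lower in the KO. The Schwann cell and red blood cell markers had medians of -0.01 and -0.14. The part of these tissues in the values of *Shh* and of the genes that respond to it was not tested.

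**Figure D3:**
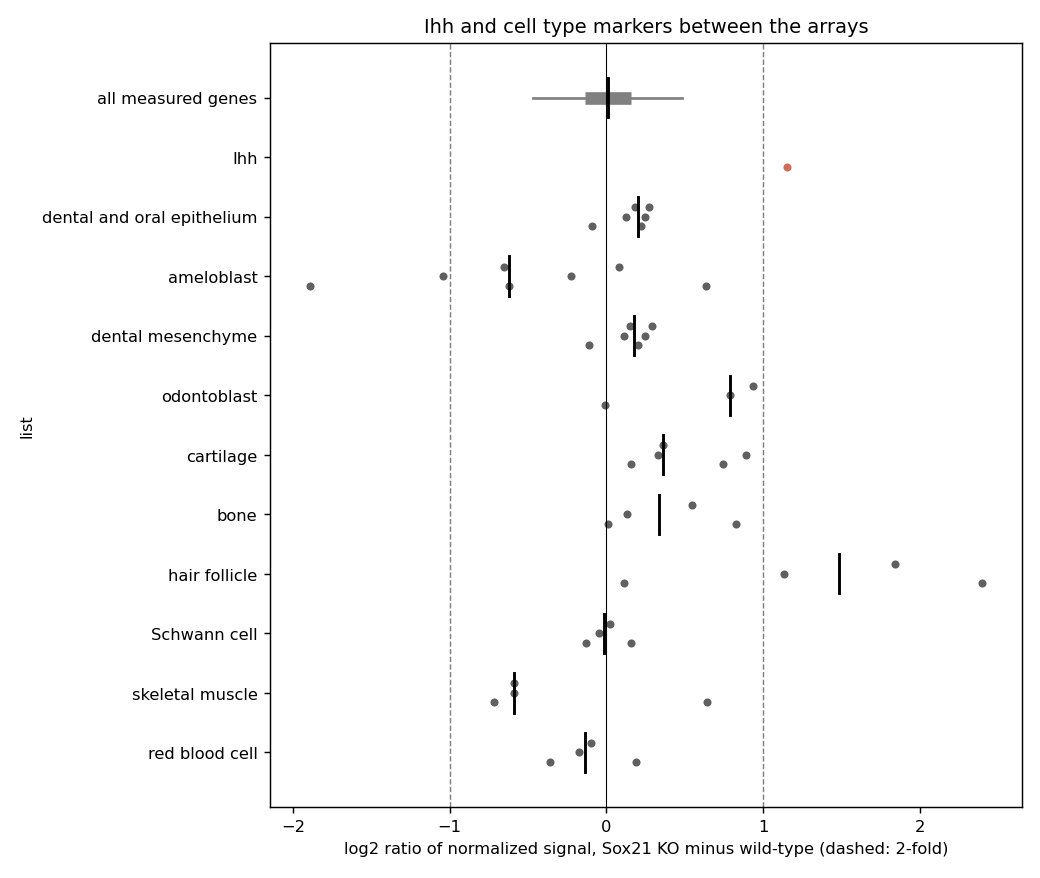
Log2 ratio of normalized signal, KO minus wild-type, for *Ihh* and for the measured genes of each marker list (points), with a tick at the median of the list. The thick and thin bars at all measured genes span the 25th to 75th and the 5th to 95th percentiles. The 5 measured cartilage markers and the 4 bone markers lie above 0, *Sox9*, *Sp7* and *Bglap* within the scanner error of it, and *Ihh*, at 1.15, lies above each of them.

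The receptor *Ptch1*, itself switched on by the pathway, differed little. At probe A_55_P2107292 (mm9 chr13:63612879-63612938, minus strand) the normalized signal was 3.29 in wild-type and 3.57 in the KO, a log2 ratio of 0.12 ± 0.20. At probe A_52_P598605 (chr13:63610298-63610357), which lies closer to the 3′ end of the transcript, it was 1.48 and 1.55, a log2 ratio of 0.07 ± 0.21. Both differences were within the scanner error, and the 2 probes differed from each other by 0.05. Of the 2968 genes with 2 measured probes, 79.9% had a gap between their probes at least that wide.

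For *Smo*, the membrane protein that relays the signal, the result depended on the probe. Probe A_51_P258766 (mm9 chr6:29711225-29711284, plus strand) gave a spot signal of 10701 in wild-type and 10448 in the KO, a normalized log2 ratio of -0.08 ± 0.20, within the scanner error. Probe A_55_P2121484 (chr6:29710919-29710978), the probe with the CA repeats, gave normalized signals of 7.74 and 5.87, a log2 ratio of -0.40 ± 0.20, or 1.32-fold higher in wild-type. Both probes were lower in the KO under every scaling that was tried, but their gap of 0.32 was matched or exceeded by 22.4% of genes with 2 measured probes. Whether the repeat bears on the second value was not tested.

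The Gli transcription factors did not differ in 1 direction. *Gli1*, whose transcription is a common readout of pathway activity, had a normalized signal of 21.0 in wild-type and 17.9 in the KO (mm9 chr10:126766967-126767026, minus strand). The log2 ratio was -0.24 ± 0.20, or 1.18-fold higher in wild-type. *Gli2*, the main activator at the start of a response, read 0.818 and 0.821 (chr1:120731255-120731314, minus strand), a log2 ratio of 0.0049 ± 0.21. This was the member probe with the smallest difference, its sign changed with the scaling, and the local background of its wild-type spot was marked as an outlier by the software. *Gli3*, which acts chiefly as a repressor in the absence of ligand, read 10.4 and 10.9 (chr13:15821502-15821561, plus strand), a log2 ratio of 0.07 ± 0.20.

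*Hhip*, a membrane protein that binds Hedgehog ligands and keeps them from Ptch1, was higher in the KO at both of its probes. Probe A_55_P1969276 (mm9 chr8:82494280-82494339, minus strand) read 7.79 in wild-type and 9.65 in the KO, a log2 ratio of 0.31 ± 0.20 or 1.24-fold. Probe A_51_P416822 (chr8:82490729-82490788), which starts 3551 bases further along the transcript, read 0.251 and 0.424, a log2 ratio of 0.75 ± 0.24 or 1.68-fold. Both differences exceeded the scanner error. The gap between the probes was 0.44, a width reached by 12.9% of genes with 2 measured probes, and with normexp the 2 log2 ratios were 0.33 and 0.40. *Hhip* and *Gli1*, both targets of the pathway, thus lay on opposite sides of 0, and *Ptch1* lay between them.

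*Sufu*, the cytoplasmic inhibitor of the Gli proteins, could not be compared fully. At probe A_52_P603184 (mm9 chr19:46529259-46529318, plus strand) the signal was 24.9 ± 5.32 in wild-type, well above background, and 18.0 ± 4.70 in the KO, which was not. With the KO array set at its lowest signal well above background, this probe was at least 1.32-fold lower in the KO. This bound compares the KO limit with the wild-type spot and carries the scanner error of a dim spot. At probe A_51_P396550 (chr19:46558091-46558150) the signals were 15.9 ± 5.24 and 15.9 ± 4.71, and neither was well above background.

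**Figure D4:**
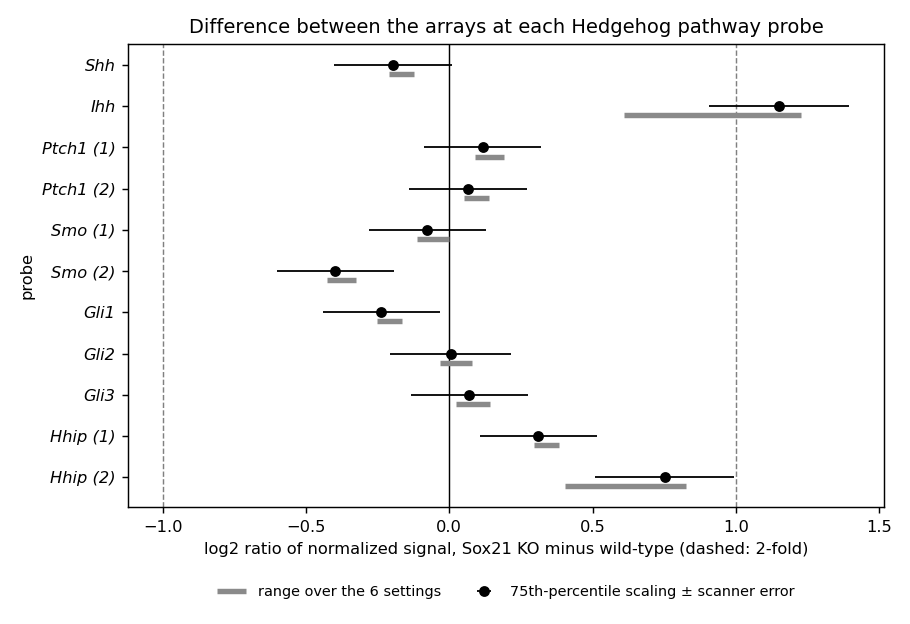
Log2 ratio of normalized signal, KO minus wild-type, for the 11 measured member probes (black points, with the scanner error as bars) and the range over 6 scalings and background corrections (grey bars). The *Ihh* probe lies past the dashed 2-fold line, its range reaches down to 0.61, and both *Hhip* probes stay above 0.

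The other genes of the pathway were taken at 1 probe each. Of 47 such genes in 5 lists, 42 were measured, of which 18 were higher and 24 lower in the KO. None of the 42 lay 2-fold apart at the probe that represents it, beside 1.41% of all 13803 measured genes, and 10 of the 42 differed by more than the scanner error, beside the 33.9% given above. Their median log2 ratio was -0.01 against 0.01 for all measured genes, and the median size of the difference was 0.10 against 0.15.

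Of the 6 genes that make or release ligand, 3 were higher and 3 lower in the KO, with a median of -0.0037, or -0.12 when all measured probes of a gene were averaged. *Hhat*, which attaches palmitate to the ligands, had a normalized signal of 2.18 in wild-type and 2.67 in the KO, a log2 ratio of 0.29. *Disp1*, which releases the lipid-modified ligand from the cell, had 0.982 and 0.786, a log2 ratio of -0.32. *Dhh*, the third mammalian Hedgehog ligand, had a log2 ratio of -0.20, and *Scube1*, a secreted protein of the family that helps ligand release, had 0.03. For the related *Scube2*, 1 probe gave -0.01 and the other -0.88.

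For the co-receptors the median was 0.26, and 3 of the 5 that were measured stood higher in the KO, with *Lrp2* too dim to be measured on both arrays. *Boc* and *Cdon*, related surface proteins that bind ligand together with Ptch1, had normalized signals of 0.729 and 2.93 in wild-type and 1.03 and 3.77 in the KO. Their log2 ratios were 0.49 and 0.36. *Gas1*, another co-receptor, gave 0.26 at 1 probe and -0.26 at another, and its last probe was measured in the KO alone, at least 1.80-fold higher there. *Gpc3*, a glypican that competes with Ptch1 for ligand, had 19.1 and 17.1, a log2 ratio of -0.16. When all measured probes of a gene were averaged, the median of this list was 0.00081.

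Of 15 genes that relay the signal or regulate Gli proteins, 14 were measured, with 5 higher, 9 lower and a median of -0.03. *Kif7*, a kinesin-like protein of the cilium tip, had a log2 ratio of -0.32 ± 0.21, and the kinase gene *Stk36* had -0.23 ± 0.21. A second *Kif7* probe was well above background in wild-type alone and at least 2.68-fold lower in the KO, whereas a second *Stk36* probe was so in the KO alone and read 1.35-fold higher there than the dim wild-type spot. *Gpr161*, a ciliary receptor that restrains the pathway, had 0.33 ± 0.39, within the error of its dim spots, and the kinase gene *Grk2* had 0.20 ± 0.20. *Efcab7*, which helps hold the Evc complex in the cilium, was well above background at 1 probe in the wild-type array alone, at 27.7 ± 5.59. The bound there, at least 1.46-fold lower in the KO, carries the scanner error of a dim spot. The other *Efcab7* probe was well above background on neither array.

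Hedgehog signal passes through the primary cilium, and 8 of 9 genes of ciliary transport were measured. 2 were higher and 6 lower, all between -0.16 for *Ift80* and 0.14 for *Arl13b*, and none exceeded the scanner error. *Ift172* stood at 0.12 and *Ift122* at -0.04, while *Ift140* was near background on both arrays.

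Among 12 genes reported as targets, 10 were measured, 5 higher and 5 lower, with a median of 0.0030. *Ccnd2*, a cyclin gene, had a normalized signal of 13.8 in wild-type and 17.8 in the KO, a log2 ratio of 0.37, and the forkhead gene *Foxc2* had 0.804 and 0.966, a log2 ratio of 0.27. *Bcl2*, which protects cells from apoptosis, had 1.27 and 1.01, a log2 ratio of -0.33, and *Mycn* had 0.647 and 0.581, a log2 ratio of -0.15. *Foxd1* and *Foxl1* were near background on both arrays. The reported targets thus showed no common direction, as was the case for *Gli1*, *Ptch1* and *Hhip*.

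**Figure D5:**
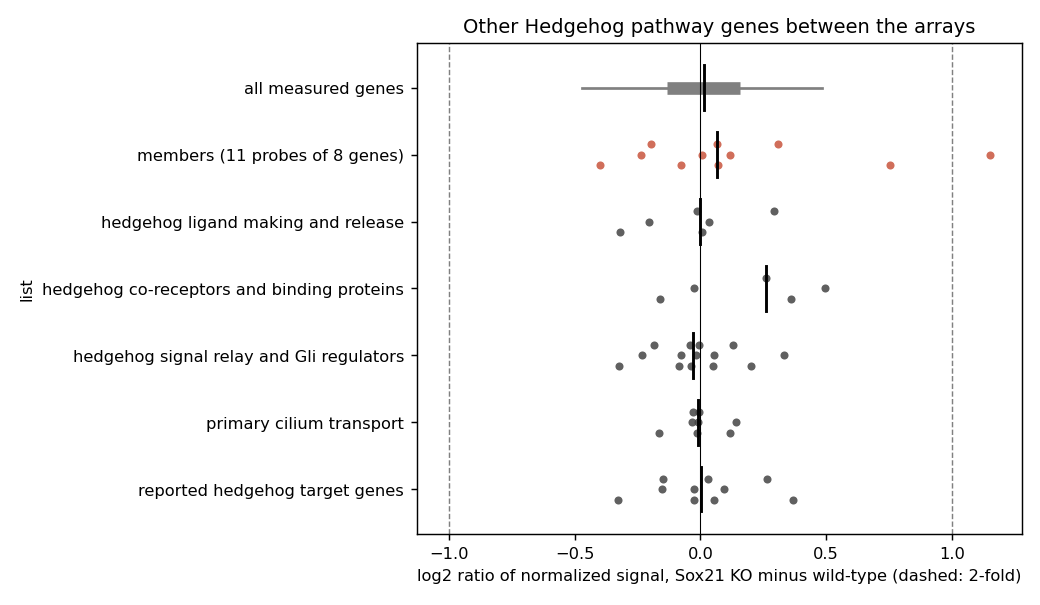
Log2 ratio of normalized signal, KO minus wild-type, for the 11 measured member probes and for the measured genes of 5 pathway lists (points), with ticks at the medians and the spread of all measured genes at the top (25th to 75th and 5th to 95th percentiles). None of the 42 measured genes in the lists reaches the dashed 2-fold lines, and the cilium genes lie closest together, between -0.16 and 0.14.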

How the data were processed

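RNA of 1 wild-type and 1 *Sox21* KO incisor sample was hybridized to SurePrint G3 Mouse GE 8×60K arrays with 1 dye. Per the file headers, Agilent Feature Extraction 10.7.3.1 produced the deposited signal intensities, already corrected for background within the array. A deposited table holds ratios, in which every signal is divided by a single number per array and which differed from the 75th-percentile quotient by a relative difference of at most 2.7e-06. Each signal was divided here by the 75th percentile over all 62976 spots, 267 outlier spots were left out, and spots of 1 probe were averaged. Other genes are represented by their brightest measured probe. Alternatives were scaling on the median or without control spots, quantile normalization, normexp (limma 3.58.1, offset 50), the deposited table, no background requirement, a 1.5-fold threshold and probe means. Genes named from the lists are those at least 2-fold apart or measured on 1 array alone, then the 2 highest and 2 lowest ratios per list, together with probes of 1 gene that disagree. 1 gene that this rule names is not reported here. Members and lists were chosen with earlier results of these data known. Symbols were matched to RefSeq by accession for 26300 probes, by symbol for 2044 and by older symbol for 355, and 26982 kept the name in the files. Coordinates are mm9, as deposited. The number of arrays limits the precision.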

Additional observations from a re-analysis of the deposited data

How the results depend on the processing

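No paired analysis was possible because each genotype has 1 array, and leaving out an array would leave no comparison. The direction of every measured member probe except that of *Gli2* was kept under median scaling, the 75th percentile without control spots, quantile normalization, normexp and the deposited table, and *Gli2* ranged from -0.03 to 0.08. The number of member probes at least 2-fold apart was 0 with normexp, and 2 with a 1.5-fold threshold, which 6.90% of all measured probes passed. With normexp the log2 ratio of *Ihh* was 0.61 and that of the *Hhip* probe A_51_P416822 was 0.40. The co-receptor median was 0.12 with no requirement on background and 0.00081 with probes averaged, and the median of the ligand-making genes was -0.12 with probes averaged. The cause of these shifts was not tested. Of all measured probes, 164 were at least 2-fold higher and 206 lower in the KO, against 206 and 156 with median scaling, 74 and 65 with normexp, 176 and 188 with quantile normalization, and 159 and 213 without control spots. Signals near background limit *Ihh*, the second *Hhip* probe and *Sufu*.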
